A study of Mus musculus with 65 samples.

Results

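The genes described here are 10 genes that serve as markers of lymphocytes and of blood-derived cells in general: Trac, Cd3e, Cd3g, Cd3d, Cd8a, Cd4, Ptprc, Ighm, Cd79a and Nkg7. They were taken as a list of names, with no threshold on measured values, and all 10 are among the 49670 gene IDs of the deposited table. They were followed in cerebellum, medulla and pons of mice in which an antisense oligonucleotide (ASO) had been used to lower Atxn1. Atxn1 is the gene whose expanded CAG repeat underlies spinocerebellar ataxia type 1, a disease of cerebellum and brainstem, and an ASO is a short synthetic nucleic acid that binds a transcript and lowers it. All mice were C57BL/6J. Each tissue and age had 3 groups: wild type mice given vehicle, Atxn1[82Q] knockin mice given vehicle, and Atxn1[82Q] knockin mice given the ASO against Atxn1. In that order the groups held 4, 4 and 4 libraries in cerebellum at 18 weeks, 3, 3 and 3 in medulla and 3, 3 and 3 in pons at 18 weeks, 8, 8 and 7 in medulla at 28 weeks, and 4, 4 and 4 in pons at 28 weeks. No wild type mice given the ASO were among the groups, so an effect of the oligonucleotide that does not pass through the knockin allele cannot be told apart from one that does. The sequence, dose and route of the ASO and the sex of the mice are not given in the sources used here.

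T cells recognise antigen with a receptor whose alpha and beta chains are joined from variable (V), joining (J) and constant segments, and the receptor signals through the CD3 chains. B cells carry an antibody of the IgM class on their surface together with CD79A and CD79B, while CD4 and CD8 mark the helper and cytotoxic classes of T cells. In healthy brain tissue lymphocytes are rare, whereas microglia, the resident macrophages, are abundant and carry the blood-cell surface phosphatase CD45, the product of Ptprc.

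Total counts per library ran from 49171833 to 119135115 reads over the 65 libraries, with a median of 77043983. In each library 70.0% to 78.6% of the counts between 1 and 20 were even numbers, so that a count of 2 may stand for the mates of a single fragment. In 6 libraries, chosen by no fixed rule after the values were seen, Atxn1 was taken to go against the label. Of the libraries labelled ASO, replicate 2 had the most Atxn1 of its ASO group in both brainstem regions, with 39.0 CPM (reads relative to the TMM-scaled size of the library) for medulla at 18 weeks, 51.0 CPM for pons at 18 weeks, 49.4 CPM for medulla at 28 weeks and 51.0 CPM for pons at 28 weeks. The least Atxn1 among 18-week wild type libraries was that of replicate 3, at 15.3 CPM (medulla) and 16.5 CPM (pons). Each of these replicates carries the same number in the table's header in both tissues, although the labels do not say whether medulla and pons came from the same mouse. The ASO library of medulla at 18 weeks was still below its vehicle-treated knockin libraries (43.6 to 49.8 CPM). Not counted among the 6 were ASO replicate 4 of cerebellum, with 50.3 CPM, and a wild type library of pons at 18 weeks with 51.6 CPM. With all libraries, edgeR called Atxn1 lower between ASO and vehicle in medulla at 28 weeks alone (means 33.0 and 44.4 CPM). That call ended when any of 8 single libraries was left out (adjusted p 0.0529 to 0.0820 by edgeR). Means in pons at 28 weeks were 35.5 and 54.2 CPM, and Atxn1 was called there without ASO replicate 2 (log2 difference -0.82, adjusted p = 0.00387 by edgeR). In medulla at 28 weeks 4 libraries of batch 2 (ASO replicates 6 and 7, vehicle-treated knockin replicate 8 and wild type replicate 5) were low in Hox genes, which mark position along the hindbrain. Calls of the 10 genes at 28 weeks are given with and without these libraries. The labels do not say whether replicates are separate mice, so p-values measure only the spread between these libraries.

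Promoter sequences were in the RefSeq table for 7 of the 10 genes, all but Trac, Ighm and Cd4. Those of Ptprc and Cd3d are shown because they stand for the 2 patterns described below, a gene that differed between groups and a gene with almost no reads. Both run from 250 bases before the start of transcription to 50 bases after it, 5′ to 3′ on the strand of the gene, in GRCm38.p6. The Ptprc window is chr1:138175256-138175555 on the minus strand, the upstream one of 2 Ptprc starts in the table, and the Cd3d window is chr9:44981536-44981835 on the plus strand. Capitals mark GAGGAA or its reverse complement TTCCTC, the core letters bound by PU.1, a transcription factor of myeloid and B cells.

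Ptprc: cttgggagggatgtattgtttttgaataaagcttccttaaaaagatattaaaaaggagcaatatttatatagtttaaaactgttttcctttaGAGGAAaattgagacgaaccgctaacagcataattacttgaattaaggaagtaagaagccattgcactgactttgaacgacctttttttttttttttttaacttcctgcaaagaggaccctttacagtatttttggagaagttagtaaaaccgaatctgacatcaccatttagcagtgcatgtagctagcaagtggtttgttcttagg

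Cd3d: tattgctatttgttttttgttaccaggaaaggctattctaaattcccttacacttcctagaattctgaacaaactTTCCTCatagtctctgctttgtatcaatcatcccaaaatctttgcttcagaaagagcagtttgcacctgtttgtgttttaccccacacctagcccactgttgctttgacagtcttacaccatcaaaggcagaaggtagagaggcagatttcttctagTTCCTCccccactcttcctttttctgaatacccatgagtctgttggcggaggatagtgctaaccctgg

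The Ptprc window held 1 match to GAGGAA on either strand and the Cd3d window held 2. Of all 32851 promoter windows in the table, 28.3% held at least 1 match. Among the other members Cd3e, Cd79a and Cd8a held 1 match each and Cd3g and Nkg7 held 0, as did the second Ptprc window. A match in these letters is a description and shows no binding.

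Read counts differed widely among the 10 genes. Ighm, the constant region of the IgM heavy chain (chr12:113418558-113422730, minus strand), had 323 to 7918 reads per library, with a median of 2851. Ptprc (chr1:138062861-138175708, minus strand) had 157 to 955 reads, with a median of 378, and Trac, the constant region of the T cell receptor alpha chain (chr14:54220521-54224206, plus strand), had 56 to 360 reads, with a median of 144. Cd79a, a signalling chain of the B cell receptor, followed with 18 to 121 reads and a median of 56. The other 6 genes were close to the limit of detection: median counts were 12 for Cd4, 8 for Cd8a and for Nkg7, 6 for Cd3e, and 4 for Cd3g and for Cd3d.

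**Figure D1:**
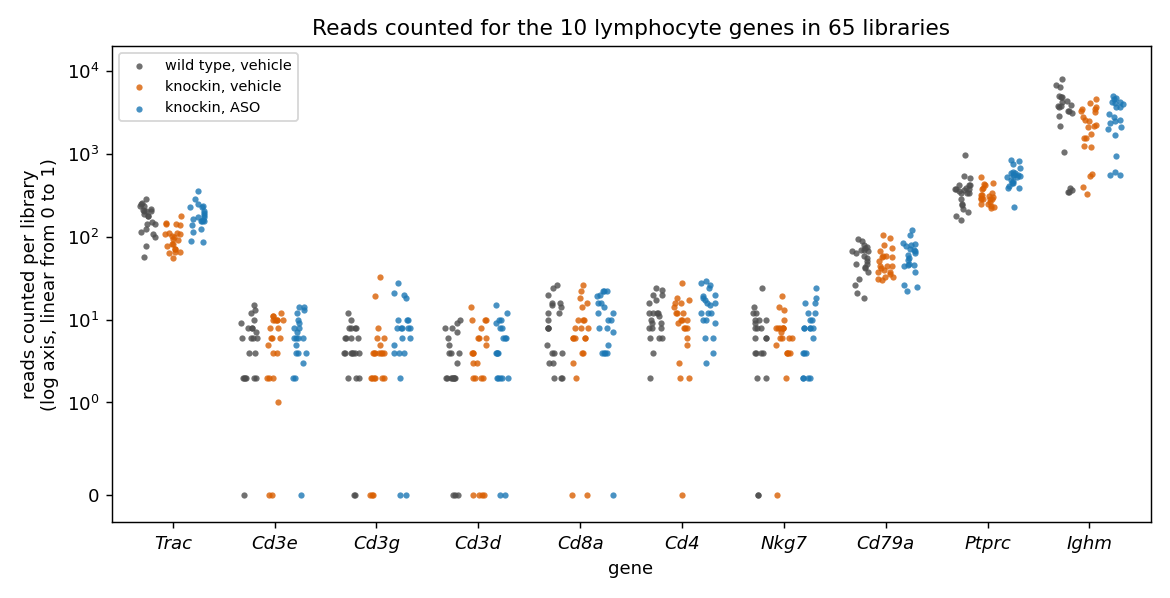
Reads counted for each of the 10 genes in each of the 65 libraries, on a log axis that is linear from 0 to 1; points are libraries, coloured by group. Cd3e, Cd3g, Cd3d, Cd8a, Cd4 and Nkg7 stay at or below 33 reads in every library, while Ighm reaches 7918.

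Per length of transcript, as CPM divided by the exon length in kilobases (RPKM), the median over libraries was 20.4 for Ighm, 1.94 for Trac, 0.476 for Cd79a, 0.256 for Ptprc and 0.0978 for Nkg7. Medians of Cd4, Cd8a, Cd3d, Cd3e and Cd3g were 0.0363, 0.0321, 0.0238, 0.0200 and 0.0186 RPKM, so the level of Trac was far above those of the CD3 chains that reach the cell surface with it. Cd3e was at 0 in 4 libraries, Cd3g in 7, Cd3d in 9, Cd8a in 3, Nkg7 in 3 and Cd4 in 1. The defining T cell genes other than Trac were therefore at or near 0.

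The other parts of the receptors had fewer reads than Trac and Ighm. Trbc1 and Trbc2, the constant regions of the T cell receptor beta chain, had median counts of 4 and 37. The 113 V segments of the alpha and delta locus held 56 reads per library in the median when summed, with a range of 0 to 107. The median of Trac was 144 reads. The V segments of the beta locus held a median of 12. The 113 V segments of the immunoglobulin heavy chain locus held a median of 8 reads per library when summed, with a highest library of 80, against the median of 2851 reads in Ighm. An IgM transcript of a B cell carries a V segment. Other B cell genes were mixed: of 20 on the list 7 had a median count under 10, among them Ms4a1, which encodes CD20, with 6, and Ighg1 with 0. The highest medians were 102 for Pax5, a transcription factor of B cells, 99 for Cr2, a complement receptor, and 91 for Tnfrsf13b, and Ighd, the IgD constant region, had 36. The reads of Trac were thus not matched by the CD3 chains, while V segments of its locus did hold reads. The label of a lymphocyte set is not settled for Trac, Ighm or Ptprc. All 3 are described here as genes and not as a cell type. Which cells gave these reads was not tested. In bulk tissue, moreover, fewer cells of a type and less RNA per cell cannot be told apart.

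Ighm differed most between regions. In cerebellum it held 4.14 to 8.04 CPM over 12 libraries, against 44.7 to 70.7 CPM over 9 libraries of medulla at the same age and 15.4 to 57.9 CPM over 9 libraries of pons. At 28 weeks it ranged from 24.5 to 87.0 CPM in 23 medulla libraries and from 17.6 to 50.1 CPM in 12 pons libraries. No cerebellum library overlapped with any library of medulla or pons, and no test between regions was made. Cd79a, the partner of IgM on B cells, did not follow Ighm across regions: its 18-week medians were 0.815 CPM for cerebellum, 0.533 CPM for medulla and 0.718 CPM for pons. Trac had medians of 1.78, 1.23 and 2.13 CPM in the same order, with overlapping ranges. Ptprc medians were 2.73, 4.99 and 5.08 CPM.

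The first comparison, ASO-treated against vehicle-treated knockin, asks what the oligonucleotide changed. In medulla at 28 weeks Trac, Ptprc and Ighm were higher with the ASO, and no gene of the set was lower. Trac read 1.82, 1.18, 2.05, 2.08, 2.01, 2.67 and 2.99 CPM in ASO replicates 1 to 7, against 0.756 to 1.72 CPM, with a median of 0.989 CPM, in 8 vehicle-treated knockin libraries. The groups overlapped in a single ASO library, replicate 2, which lay below vehicle replicates 5 and 8, and the other 6 ASO libraries were above every vehicle library. The means were 2.12 ± 0.585 CPM (SD, n = 7) and 1.05 ± 0.325 CPM (SD, n = 8), a log2 difference of 1.04 ± 0.154 (SE).

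Ptprc read 8.44, 5.47, 6.94, 6.73, 5.89, 6.32 and 5.86 CPM in ASO replicates 1 to 7, against 3.27 to 6.11 CPM, with a median of 4.36 CPM, in vehicle-treated knockin. Vehicle replicate 8, one of the libraries low in Hox genes, was the vehicle library that reached into the ASO range. Ighm read 64.6, 49.5, 52.9, 54.9, 44.5, 49.4 and 51.5 CPM in ASO replicates 1 to 7, against 24.5 to 44.3 CPM, with a median of 33.2 CPM, in vehicle, and the groups did not overlap. The log2 differences were 0.55 ± 0.107 (SE) for Ptprc and 0.65 ± 0.148 (SE) for Ighm.

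Of the 10 genes 7 passed the filter on low counts in medulla at 28 weeks, and 3 were called higher at an adjusted p under 0.05, where 1.69% of all 20465 genes tested were called, 1.3% as higher and 0.386% as lower. Adjusted p-values from the quasi-likelihood test of edgeR with Benjamini-Hochberg adjustment were 0.000843 for Trac, 0.00674 for Ptprc and 0.0250 for Ighm. The call of Ighm ended without ASO replicate 1, 4 or 6 or vehicle-treated knockin replicate 5 or 7 (adjusted p 0.0517 to 0.0596, log2 difference 0.60 to 0.65), without the 4 libraries low in Hox genes (adjusted p = 0.0744 by edgeR) and with no filter on low counts (0.0540). Without those 4 libraries Trac and Ptprc were called, at log2 differences of 1.00 and 0.68. Within batch 1 the log2 differences were 1.08 for Trac, 0.79 for Ptprc and 0.57 for Ighm, and within batch 2 they were 1.02, 0.28 and 0.72, with none of the 3 called in either batch alone. Without ASO replicate 2, whose Atxn1 goes against the label, all 3 were called, with log2 differences of 1.12, 0.58 and 0.66.

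**Figure D2:**
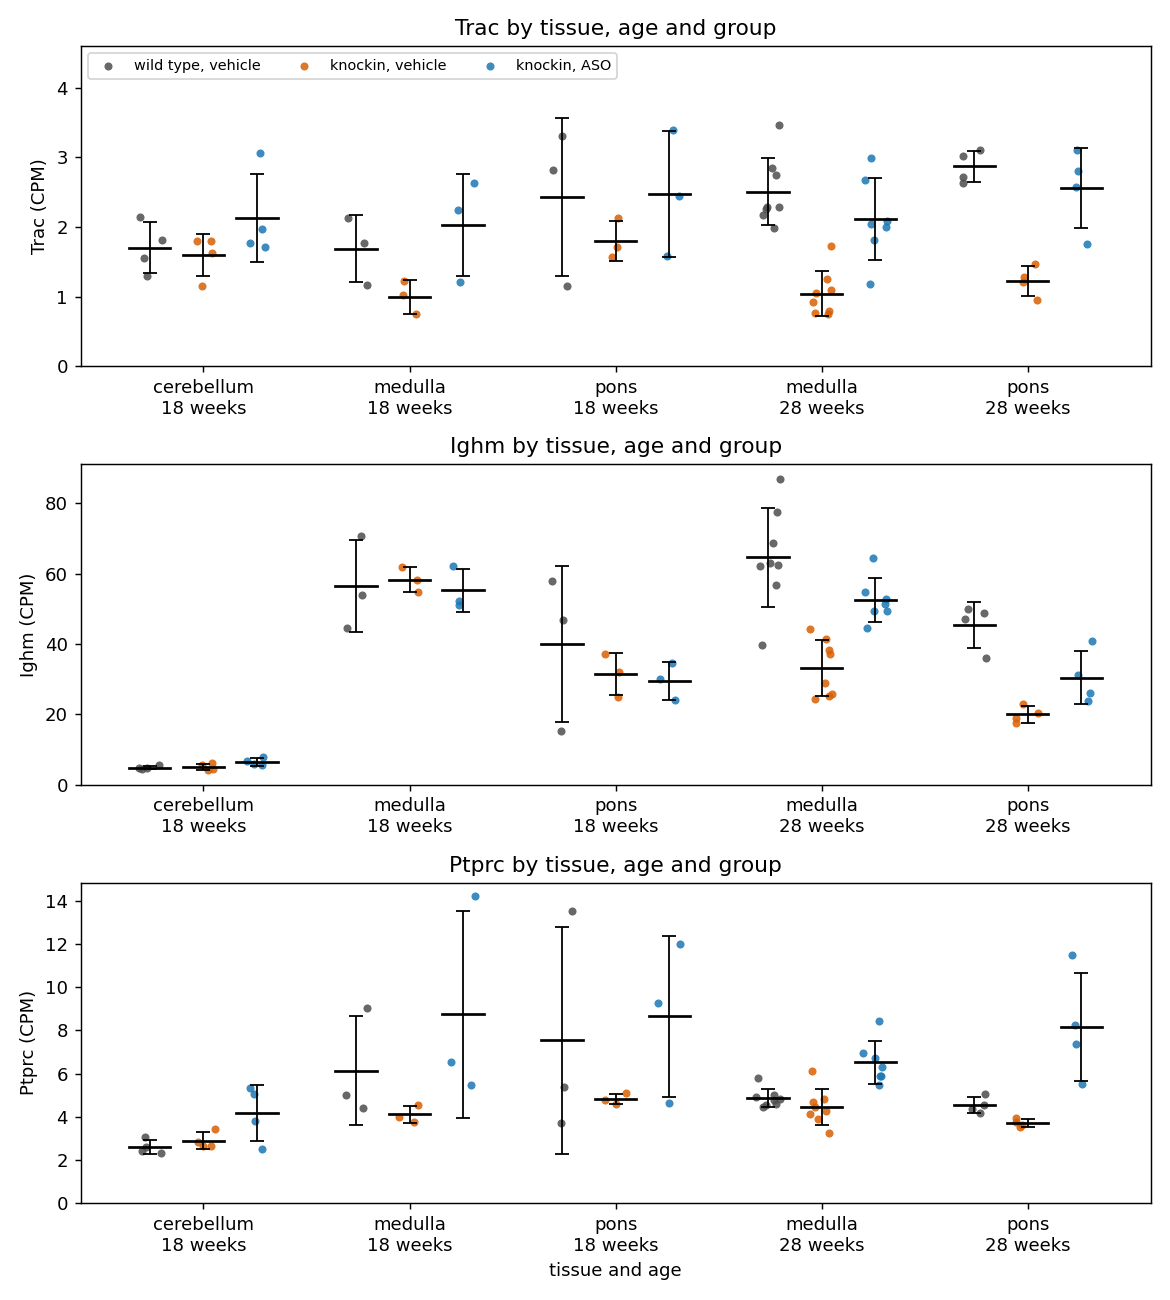
Levels in CPM of Trac, Ighm and Ptprc in every library by tissue, age and group; points are libraries, horizontal lines are group means and bars are 1 SD either side. At 28 weeks Trac and Ighm are lowest in vehicle-treated knockin, with means of 1.05 and 33.3 CPM in medulla, while Ptprc is highest in the ASO groups, with means of 6.52 CPM in medulla and 8.16 CPM in pons.

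In pons at 28 weeks Ptprc and Trac were higher with the ASO. Ptprc read 11.5, 5.53, 8.24 and 7.36 CPM in ASO replicates 1 to 4 and 3.75, 3.51, 3.61 and 3.92 CPM in vehicle-treated knockin replicates 1 to 4. Trac read 3.11, 1.76, 2.81 and 2.57 CPM with the ASO and 0.948, 1.28, 1.21 and 1.47 CPM with vehicle. For both genes every ASO library was above every vehicle library, and the library labelled ASO replicate 2 was the lowest of its group.

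The log2 differences in pons were 1.14 ± 0.167 (SE) for Ptprc and 1.06 ± 0.178 (SE) for Trac, with adjusted p-values of 0.0250 and 0.0387 by edgeR with Benjamini-Hochberg adjustment. Ighm read 41.0, 23.9, 31.1 and 26 CPM with the ASO and 20.5, 17.6, 18.9 and 23 CPM with vehicle. Its groups did not overlap, but its log2 difference of 0.61 was not called (adjusted p = 0.15 by edgeR). Of the 10 genes 7 passed the filter and 2 were called, both higher, where 0.0929% of 20458 genes were called, 0.0831% as higher and 0.00978% as lower. DESeq2 called 3 of the 10, and 614 genes in all. The calls in pons were close to the threshold. Both ended when only these 2 groups were fitted (adjusted p 0.176 for Ptprc and 0.186 for Trac by edgeR). That of Ptprc ended without ASO replicate 3, vehicle-treated knockin replicate 1, 2 or 3 or wild type replicate 1 or 4 (0.0545 to 0.148), and that of Trac without any library but ASO replicates 2 and 4 and vehicle-treated knockin replicate 4 (0.0584 to 0.173). Log2 differences without those libraries were 1.12 to 1.15 for Ptprc and 0.96 to 1.08 for Trac. Without ASO replicate 2 both were called, at log2 differences of 1.30 and 1.22.

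The second comparison, vehicle-treated knockin against wild type, asks what the expanded allele changed. Trac and Ighm were lower in knockin in both brainstem regions at 28 weeks. In medulla Trac ranged from 1.98 to 3.46 CPM in wild type, with a median of 2.29 CPM, and every knockin library was below every wild type library. The log2 difference was -1.28 ± 0.150 (SE), with an adjusted p of 3.05e-06 by edgeR with Benjamini-Hochberg adjustment. Ighm ranged from 39.7 to 87.0 CPM in wild type, with a median of 62.8 CPM, and the lowest wild type library, replicate 5, fell within the knockin range. Its log2 difference was -0.96 ± 0.144 (SE), with an adjusted p of 8.67e-05 by edgeR. Of the 10 genes 7 passed the filter and 2 were called, both lower, where 19.3% of all genes were called, 9.99% as lower and 9.28% as higher. Both calls held in batch 1 alone (log2 differences -1.46 for Trac and -0.71 for Ighm) and in batch 2 alone (-1.10 and -1.22), without each library in turn and without the 4 libraries low in Hox genes (-1.32 and -0.99).

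In pons at 28 weeks Trac read 3.10, 2.63, 2.72 and 3.03 CPM in wild type and Ighm read 47.2, 35.9, 50.1 and 48.8 CPM. All were above the 4 vehicle-treated knockin libraries given above. The log2 differences were -1.22 ± 0.177 (SE) for Trac and -1.19 ± 0.168 (SE) for Ighm, with adjusted p-values of 0.00134 and 0.00245 by edgeR with Benjamini-Hochberg adjustment. Of the 10 genes 7 passed the filter and 2 were called, both lower, where 9.79% of all genes were called, 5.65% as lower and 4.14% as higher. Both calls held without each library in turn. Ptprc was not called between knockin and wild type in medulla (log2 difference -0.12) or in pons (-0.29), although the pons groups did not overlap.

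**Figure D3:**
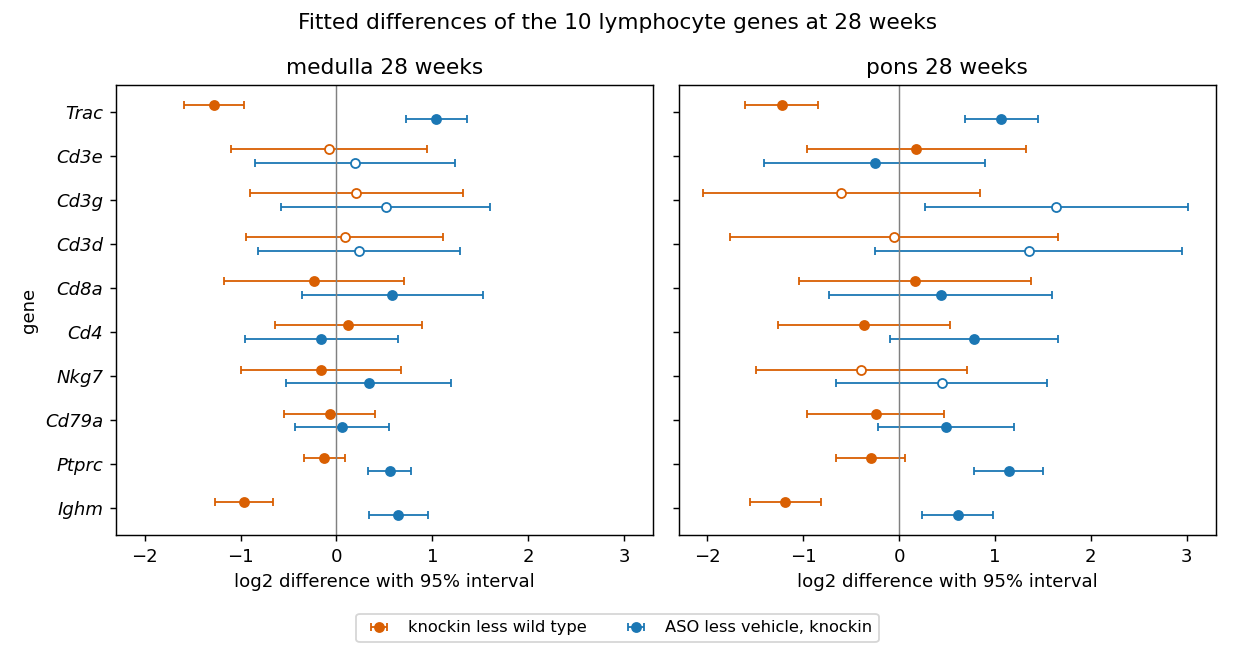
Fitted log2 differences of the 10 genes in medulla and pons at 28 weeks, with 95% intervals: vehicle-treated knockin less wild type, and ASO-treated less vehicle-treated knockin. Filled symbols are genes that passed the filter on low counts and open symbols are genes below it, taken from a fit without the filter. Trac stands at -1.28 and 1.04 in medulla and at -1.22 and 1.06 in pons.

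The third comparison, ASO-treated knockin against wild type, shares its groups with both others, so its values are given side by side with theirs and support neither. Ptprc was higher than in wild type, at a log2 difference of 0.43 ± 0.107 (SE) in medulla and 0.85 ± 0.166 (SE) in pons, with adjusted p-values of 0.0264 and 0.0344 by edgeR with Benjamini-Hochberg adjustment. Wild type libraries held 4.44 to 5.81 CPM in medulla, with a median of 4.80 CPM, and 4.54, 4.18, 5.04 and 4.37 CPM in pons, where no ASO library was as low. Of the 7 genes that passed, Ptprc alone was called in each tissue, where 3.8% of all genes in medulla and 1.07% in pons were called, 1.77% and 0.474% as higher and 2.02% and 0.591% as lower. The call of Ptprc ended in medulla without ASO replicate 1 or 4 or wild type replicate 6 or 7 (adjusted p 0.0502 to 0.0537 by edgeR, log2 difference 0.35 to 0.42), and within batches the log2 difference was 0.53 and 0.28, uncalled. Without the 4 libraries low in Hox genes it was called, at 0.48 (adjusted p = 0.0306), as it was without ASO replicate 2 in medulla (0.47) and in pons (1.00). In pons it ended without ASO replicate 3, vehicle-treated knockin replicate 1, 2 or 3 or any wild type library (0.0514 to 0.117, log2 difference 0.82 to 0.91) and with only these 2 groups fitted (adjusted p = 0.0637). Trac and Ighm were not called against wild type. Their log2 differences were -0.23 and -0.32 in medulla and -0.16 and -0.58 in pons, with 95% intervals of -0.55 to 0.08, -0.63 to -0.01, -0.52 to 0.20 and -0.94 to -0.21.

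The CD3 chains, which carry the signal of the T cell receptor, had too few reads to be tested in most comparisons: only Cd3e, in pons at 28 weeks, passed the filter, and it was not called there. Cd3e had 14, 0, 4, 13, 6, 8 and 10 reads in ASO replicates 1 to 7 of medulla at 28 weeks and 1 to 12 reads in vehicle-treated knockin. In pons at 28 weeks it had 8, 2, 12 and 7 reads with the ASO and 6, 10, 8 and 10 with vehicle. In the 18-week ASO libraries it had 5, 4, 2 and 6 reads in cerebellum, 14, 6 and 6 in medulla and 4, 9 and 3 in pons. ASO and vehicle libraries of Cd3e overlapped everywhere but in medulla at 18 weeks, where vehicle had 0, 2 and 2 reads. There the log2 difference in a fit without the filter was 2.70 (unadjusted p = 0.0204, adjusted p = 0.943 by edgeR).

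Cd3g had 21, 4, 8, 28, 10, 4 and 10 reads in the medulla ASO libraries at 28 weeks, 20, 2, 18 and 5 in pons, 0, 6, 4 and 8 in cerebellum, 6, 10 and 0 in medulla at 18 weeks and 8, 8 and 8 in pons at 18 weeks. Its highest library was a vehicle-treated knockin library, medulla replicate 2 at 28 weeks, with 33 reads. Cd3d had 6, 6, 9, 6, 12, 2 and 2 reads in the medulla ASO libraries at 28 weeks, 15, 4, 10 and 8 in pons, 4, 4, 10 and 2 in cerebellum, 0, 0 and 2 in medulla at 18 weeks and 8, 4 and 2 in pons at 18 weeks. Cd3d in medulla at 18 weeks went the other way from Cd3e: vehicle had 10, 2 and 6 reads, and the log2 difference was -2.87 (unadjusted p = 0.0449, adjusted p = 0.943 by edgeR). Chains of 1 complex thus differed in sign at these counts. Cd3g and Cd3d lie head to head, 1355 bases apart. In a fit without the filter the log2 difference of Cd3g in pons at 28 weeks was 1.64 (unadjusted p = 0.0210, adjusted p = 0.408 by edgeR) and that of Cd3d was 1.35 (adjusted p = 0.602). Their 95% intervals were 0.27 to 3.01 and -0.25 to 2.95.

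The co-receptors showed the same scatter. Cd8a, the alpha chain of CD8, had 22, 12, 10, 22, 8, 16 and 16 reads in ASO replicates 1 to 7 of medulla at 28 weeks, 20, 7, 19 and 22 in pons, 14, 4, 0 and 4 in cerebellum, 10, 12 and 4 in medulla at 18 weeks and 8, 5 and 4 in pons at 18 weeks. Cd4, which microglia and macrophages can carry too, had 4, 6, 16, 6, 9, 19 and 16 reads in medulla and 10, 24, 18 and 28 in pons at 28 weeks. At 18 weeks Cd4 had 26, 29, 15 and 10 reads in the cerebellum ASO libraries, 17, 12 and 3 in medulla and 12, 20 and 12 in pons. Cd4 passed the filter in every tissue and age and Cd8a in all but cerebellum, and neither was called. Their ASO and vehicle libraries overlapped in every tissue and age.

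Nkg7, a granule protein of natural killer and cytotoxic T cells, had 6, 8, 2, 24, 12, 16 and 8 reads in the medulla ASO libraries at 28 weeks and 18, 8, 8 and 4 in pons. At 18 weeks it had 10, 8, 16 and 4 reads in cerebellum, 2, 12 and 2 in medulla and 2, 10 and 4 in pons. Its vehicle-treated knockin libraries at 28 weeks held 4 to 19 reads in medulla and 6 to 8 in pons. It passed the filter in medulla at 28 weeks alone and was not called. Cd79a had 26, 56, 60, 68, 52, 46 and 121 reads in the medulla ASO libraries at 28 weeks and 25, 82, 72 and 79 in pons. Its ASO means were 0.727 ± 0.287 CPM (SD, n = 7) and 0.844 ± 0.359 CPM (SD, n = 4), against 0.701 ± 0.232 CPM (SD, n = 8) and 0.599 ± 0.173 CPM (SD, n = 4) with vehicle. The log2 differences of Cd79a, 0.06 in medulla with a 95% interval of -0.43 to 0.55 and 0.49 in pons with an interval of -0.22 to 1.20, were within the spread between libraries.

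At 18 weeks none of the 10 genes was called in any comparison. In cerebellum 5 of the 10 passed the filter, and 0 were called by edgeR between ASO and vehicle, where 0.0491% of 20350 genes were called. The count at an unadjusted p under 0.05 was 2, beside 1556 of all genes tested, and DESeq2 called 0. The smallest p was that of Ptprc, which read 5.03, 5.35, 3.80 and 2.52 CPM in ASO replicates 1 to 4 and 2.63, 2.64, 2.81 and 3.46 CPM with vehicle. ASO replicate 4, the lowest, also held the most Atxn1 of the 4 (50.3 CPM against 19.8 to 39.8 CPM). The log2 difference was 0.53 (unadjusted p = 0.0254, adjusted p = 0.575 by edgeR). Between knockin and wild type 0 of the 10 were called by edgeR and by DESeq2, where edgeR called 2.71% of all genes, 0.654% as higher and 2.06% as lower. Cd79a alone had an unadjusted p under 0.05, as had 2911 of all genes tested, with a log2 difference of -0.54 (adjusted p = 0.343 by edgeR). Between ASO and wild type 0 were called by either tool, where edgeR called 0% of all genes. At an unadjusted p under 0.05 there were 2, beside 2235 of all genes tested. Ptprc had the smallest p there, at a log2 difference of 0.68 (adjusted p = 0.276 by edgeR), and without ASO replicate 4 it was called, at 0.85 (adjusted p = 0.0264).

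In medulla at 18 weeks 6 of the 10 passed, and 0 were called by edgeR or by DESeq2 in any of the 3 comparisons, where edgeR called 0% of 19514 genes. At an unadjusted p under 0.05 there were 3 between ASO and vehicle (Trac, Ptprc and Cd4), 1 between knockin and wild type and 0 between ASO and wild type. Over all genes tested there were 905, 1121 and 660 in the same order. Trac read 2.63, 1.22 and 2.25 CPM in ASO replicates 1 to 3, 0.747, 1.02 and 1.23 CPM with vehicle, and 1.17, 2.13 and 1.78 CPM in wild type. Its log2 difference between ASO and vehicle was 1.02 (unadjusted p = 0.00701, adjusted p = 0.998 by edgeR), and between knockin and wild type -0.77 (adjusted p = 0.850). The smallest p between ASO and wild type was that of Cd79a, at 0.56 (adjusted p = 0.997). Ptprc read 14.2, 5.47 and 6.52 CPM with the ASO, 3.77, 3.99 and 4.55 CPM with vehicle and 4.38, 4.99 and 9.01 CPM in wild type, where replicate 3 is the library with low Atxn1. Without the 2 libraries taken to go against their label the difference of Trac between ASO and vehicle was 1.30 (adjusted p = 0.184 by edgeR).

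In pons at 18 weeks 6 of the 10 passed, and again 0 were called by edgeR or DESeq2 in any of the 3 comparisons, where edgeR called 0% of 19806 genes. None of the 10 had an unadjusted p under 0.05. Ptprc read 12, 4.64 and 9.27 CPM with the ASO, 4.59, 4.77 and 5.08 CPM with vehicle and 3.71, 5.36 and 13.5 CPM in wild type. The libraries that were spread widely within the ASO and wild type groups also differed in Atxn1: the library labelled ASO replicate 2 held 51.0 CPM of Atxn1 against 16.3 and 24.1 CPM in the others, and wild type replicate 3 held 16.5 CPM against 51.6 and 33.5 CPM. The log2 difference of Ptprc was 0.84 between ASO and vehicle (adjusted p = 0.754 by edgeR) and -0.63 between knockin and wild type (adjusted p = 0.557). Without wild type replicate 3 the latter turned to 0.11. Cd8a had the smallest p between ASO and wild type, at -1.07.

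Ighm at 18 weeks was not called in either brainstem region. In medulla it read 44.7, 54.1 and 70.7 CPM in wild type, 61.8, 54.7 and 58.1 CPM in vehicle-treated knockin and 52.4, 51.2 and 62.3 CPM with the ASO. In pons it read 15.4, 57.9 and 46.8 CPM, 32.1, 25.1 and 37.1 CPM, and 34.7, 24 and 30.2 CPM in the same order. The groups overlapped in both tissues. Summed cerebellum markers were highest in pons in wild type replicate 1 (745 CPM, against 129 to 634 CPM in the other 8 pons libraries of that age), the library with the least Ighm, and their part in the result was not tested. Ages were not compared in a test.

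The size of the ASO difference was compared between tissues in joint fits, which treat all libraries as independent and hold no term for batch. All 12 pons libraries at 28 weeks share a header number with a medulla library of batch 1. At 18 weeks 6 of the 9 libraries of each brainstem region share one with cerebellum. If the numbers mark mice, the intervals and p-values of these fits do not take that into account. Between medulla and pons at 28 weeks 0 of the 10 differed by edgeR, where 0% of 21718 genes did. Ptprc had the smallest p, with a difference of -0.61 in log2 units, smaller in medulla than in pons (95% interval -1.01 to -0.21, unadjusted p = 0.00398, adjusted p = 1.00), the only one of the 10 at an unadjusted p under 0.05. Within medulla the ASO difference of Ptprc was larger in batch 1 than in batch 2, as given above, and tissue was not separated from batch in this fit. For Trac and Ighm the differences between tissues were -0.06 (interval -0.66 to 0.53) and 0.04 (interval -0.46 to 0.54). At 18 weeks 7 of the 10, all but the CD3 chains, passed the filter of the joint fits, and 0 differed by edgeR between medulla and cerebellum or between pons and cerebellum, where 0.00936% and 0.014% of all genes did. At an unadjusted p under 0.05 there was 1 in the first, Cd4 (difference 2.10, adjusted p = 0.991), and 0 in the second. Over all genes tested there were 693 and 1967 in the same order, and 688 between medulla and pons at 28 weeks.

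Across libraries Trac, Ptprc and Ighm ran against Atxn1. With log2 levels taken relative to the mean of their tissue and age, Spearman's rho with Atxn1 over 65 libraries was -0.78 for Ptprc, -0.75 for Trac and -0.53 for Ighm. The libraries share groups, and some share a header number, so rho was also taken around the mean of each group. Within the 21 ASO libraries it was -0.72 for Ptprc, -0.72 for Trac and -0.64 for Ighm, and within the 17 that remain without replicate 2 of medulla and pons it was -0.62, -0.48 and -0.28. Within the 22 vehicle-treated knockin libraries it was 0.05, 0.04 and -0.12. Within the 22 wild type libraries it was -0.64, -0.44 and -0.34, and -0.38, -0.58 and -0.31 in the 20 that remain without replicate 3 of medulla and pons at 18 weeks. Genes with few reads showed weaker values, from -0.29 for Cd3g to -0.04 for Nkg7 over the 65 libraries.

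**Figure D4:**
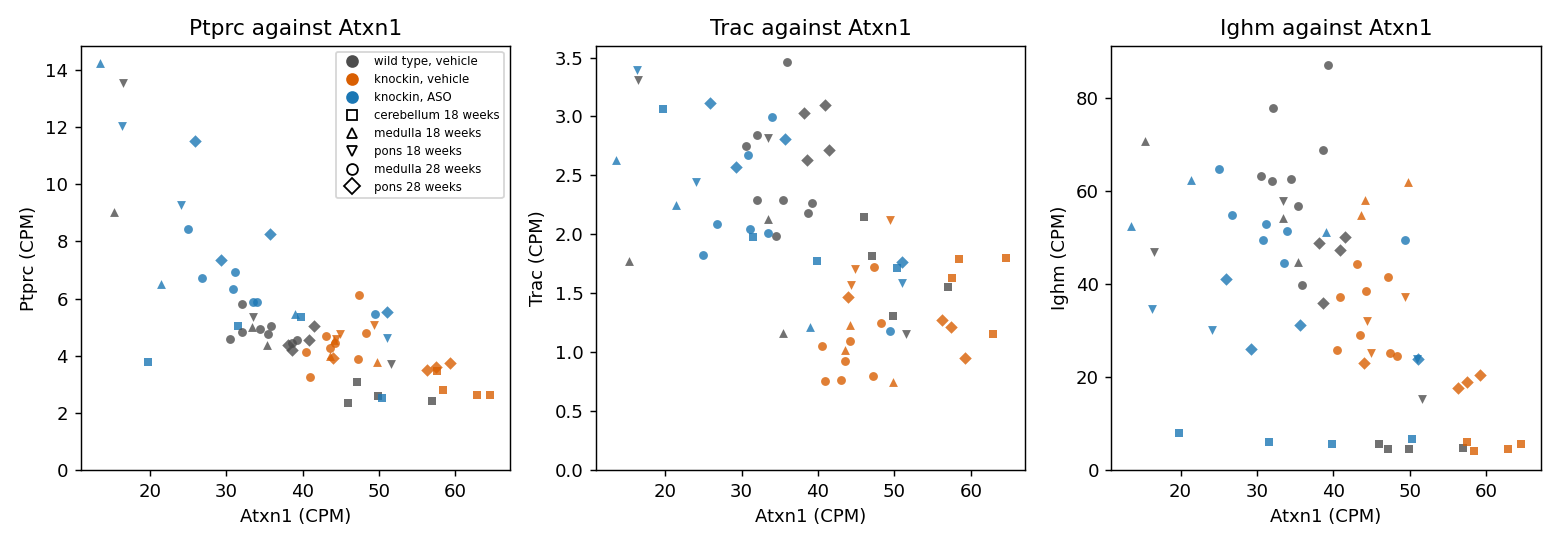
Ptprc, Trac and Ighm against Atxn1, all in CPM, in the 65 libraries; points are libraries, coloured by group and shaped by tissue and age. The highest Ptprc values, 14.2 and 13.5 CPM, are in libraries with 13.5 and 16.5 CPM of Atxn1, an ASO library of medulla and a wild type library of pons at 18 weeks.

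Correlation between members was uneven. Trac and Ighm had a rho of 0.66 with each other and Trac and Ptprc one of 0.64 over the 65 libraries, whereas Trac had 0.15, 0.23 and 0.00 with Cd3e, Cd3g and Cd3d, and Ighm had 0.06 with Cd79a. By the rule fixed for likeness, the 10 genes outside the set that ran closest to the mean of Trac and the 3 CD3 chains, of 22760 genes, included Gfap (rho 0.62), Rida, Ctsh, Klhl6, Arl11, Capg, S100a6, Slamf8 and Rab7b (0.58). Gfap encodes the intermediate filament of astrocytes, and the other genes named here were not assigned to a cell type. Against Trac alone, a choice made after its values were seen, the closest genes were F3, Lpo, Car2, Serpinb1a, Chil1, Glul, Epx, Mmd2, Ndrg2 and Ttyh1 (rho 0.85 to 0.88), of which Glul encodes the glutamine synthetase of astrocytes. Against Ptprc alone they were Mpeg1, Fcgr2b, Csf3r, Plau, Cd68, Nckap1l, Myo1f, Itgb2, Itgax and Ctss (0.82 to 0.87), which include Cd68 and Ctss, lysosomal genes of microglia and macrophages. Against Ighm alone, the highest was Pmepa1 (0.83).

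Dad1, the gene after Trac, lies 11273 bases away on the opposite strand and encodes a subunit of the enzyme that attaches sugars to proteins. Its log2 differences at 28 weeks were -0.01 in medulla and -0.08 in pons between ASO and vehicle, and -0.10 and -0.07 between knockin and wild type, none of them called (adjusted p 0.264 to 0.980 by edgeR). Between knockin and wild type Dad1 was called lower without vehicle-treated knockin replicate 2 in medulla (-0.17, adjusted p = 0.00916) and without replicate 4 in pons (-0.11, adjusted p = 0.0236).

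Other genes of the pathways were taken from fixed lists. Over all genes, 2473 of 20465 in medulla and 2993 of 20458 in pons had an unadjusted p under 0.05 between ASO and vehicle at 28 weeks. DESeq2 called 610 genes in all in medulla and 614 in pons, more than edgeR did. Of 30 other T cell genes, 18 passed the filter in medulla and 18 in pons at 28 weeks, and 0 were called between ASO and vehicle in either tissue by edgeR, with 4 and 3 at an unadjusted p under 0.05 and 1 and 0 called by DESeq2. Their median log2 differences were 0.02 and 0.01, beside -0.01 and -0.01 over all genes tested. The list was sparse: 16 of its 30 genes had a median count under 10. Of 20 other B cell and plasma cell genes 14 passed in each tissue. In medulla 1 was called, Cd22, a surface lectin of B cells that microglia also carry, at a log2 difference of 1.35 (adjusted p = 0.0486 by edgeR), a call that ended without any library but ASO replicate 2 and vehicle-treated knockin replicates 2, 3 and 5 (adjusted p 0.0527 to 0.136). In pons 0 were called by edgeR, with 3 at an unadjusted p under 0.05 and 2 called by DESeq2. The list's medians were 0.18 in medulla and 0.44 in pons. Of 18 natural killer and cytotoxic genes 7 passed in medulla, with 1 called, Cst7, a protease inhibitor also made by activated microglia, at 1.75 (adjusted p = 0.0144 by edgeR), and 6 passed in pons, with 0 called by edgeR, 2 at an unadjusted p under 0.05 and 1 called by DESeq2. Of 9 genes of tissue-resident memory T cells 6 passed in medulla and 5 in pons. By edgeR 0 were called, with 1 and 2 at an unadjusted p under 0.05 and 0 and 1 called by DESeq2.

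Of 15 lymphocyte-attracting chemokine and adhesion genes 12 passed in each tissue. In medulla 0 were called by edgeR, with 3 at an unadjusted p under 0.05 and 1 called by DESeq2, and in pons 2 were called higher between ASO and vehicle, Ccl3, a chemokine that attracts leukocytes, at a log2 difference of 3.41 (adjusted p = 0.0345 by edgeR), and Cxcl12 at 0.48 (adjusted p = 0.0387). Without ASO replicate 3, vehicle-treated knockin replicate 1 or 2 or any wild type library both calls ended, as did that of Ccl3 without vehicle-treated knockin replicate 3 and that of Cxcl12 without ASO replicate 1 (adjusted p 0.0584 to 0.173). Of 12 MHC class I genes and 9 MHC class II genes, which present antigen to T cells, 0 were called by edgeR between ASO and vehicle in medulla or pons at 28 weeks. At an unadjusted p under 0.05 there were 3 and 2 of class I and 0 and 4 of class II, and DESeq2 called 1, of class I in pons. Between knockin and wild type, however, 8 of 12 MHC class I genes were called higher in medulla, where 9.28% of all genes were, and 1 of 12 in pons, where 4.14% were. Of 20 interferon response genes 15 were called higher in medulla and 10 in pons, with medians of 0.58 and 0.49, and 0 were called between ASO and vehicle in either tissue by edgeR or DESeq2, with 0 and 1 at an unadjusted p under 0.05.

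Markers of microglia stood beside the change of Ptprc. Of 17 homeostatic microglia markers 2 were called higher in medulla at 28 weeks between ASO and vehicle, Fcrls at 0.70 and Trem2 at 0.49 (adjusted p 0.0188 and 0.0268 by edgeR), with 11 at an unadjusted p under 0.05 and 5 called by DESeq2. In pons 0 were called by edgeR, but 12 had an unadjusted p under 0.05 and DESeq2 called 10. The list's medians were 0.22 in medulla and 0.42 in pons. Of 14 genes of activated microglia 2 were called higher in medulla, Itgax at 1.89 and Cd68 at 0.63 (adjusted p 0.0229 and 0.0185 by edgeR), and DESeq2 called 4. In pons 0 were called by edgeR, but 12 had an unadjusted p under 0.05 and DESeq2 called 7. This list's medians were 0.35 and 0.58. Without ASO replicate 6 the calls of Fcrls, Cd68 and Cst7 ended (adjusted p 0.0567 to 0.0583), as did those of Trem2 and Itgax, which also ended without ASO replicate 1 or 4 or vehicle-treated knockin replicate 1 or 4 (0.0519 to 0.0844). That of Trem2 ended too without ASO replicate 3 or vehicle-treated knockin replicate 5 or 7. Without the 4 libraries low in Hox genes the calls of Fcrls, Trem2, Itgax, Cd68, Cst7 and Cd22 all ended (adjusted p 0.0501 to 0.189, log2 differences 0.52 to 2.01), and without ASO replicate 2 all 6 were called. The summed level of the homeostatic markers was 472 to 720 CPM with the ASO, 435 to 644 CPM with vehicle and 523 to 733 CPM in wild type in medulla at 28 weeks. In pons it was 530 to 918 CPM, 451 to 541 CPM and 502 to 534 CPM in the same order. At 18 weeks it was 515 to 1030 CPM with the ASO, 445 to 465 CPM with vehicle and 468 to 779 CPM in wild type in medulla, and 512 to 772 CPM, 458 to 534 CPM and 427 to 847 CPM in pons. None of the 17 genes was at a median count under 10. The part of microglia in the result for Ptprc was not tested.

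The remaining lists were 8 border-associated macrophage markers, 13 monocyte and neutrophil markers, 7 red blood cell genes, 10 meningeal fibroblast genes, 9 choroid plexus genes, 8 cerebellum markers and 12 Hox genes. Between ASO and vehicle at 28 weeks edgeR called 0 of them in medulla or pons, and DESeq2 called 1 monocyte and neutrophil marker in each. At an unadjusted p under 0.05 there was 1 monocyte and neutrophil marker in medulla, and in pons there were 4 red blood cell genes, 2 monocyte and neutrophil markers, 1 border-associated macrophage marker and 1 cerebellum marker. Summed levels of choroid plexus genes ranged in medulla from 599.7 to 33311 CPM over the 23 libraries at 28 weeks. At 18 weeks edgeR called 0 genes of any list between ASO and vehicle. In cerebellum, however, 11 of 17 homeostatic and 11 of 14 activated microglia genes had an unadjusted p under 0.05, beside 1556 of 20350 genes in all, and DESeq2 called 6 and 5 of them. The number of all genes that DESeq2 called in cerebellum is not given here. In medulla 5 of each had an unadjusted p under 0.05 (905 of 19514 in all) and in pons 1 and 2 (1246 of 19806), and DESeq2 called 0 there.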

How the data were processed

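RNA of mouse cerebellum, medulla and pons was sequenced from stranded TruSeq libraries, per the labels. The deposited table holds raw read counts per gene for 65 libraries, which the authors made with HISAT2 2.0.2 and featureCounts on GRCm38, per the submitters' processing notes; settings for read pairs and strand are not given in the sources used here. Of its 49670 gene IDs, 259 matched no name and held 0.0346% of the counts, and 0 sample columns were left unused. Groups came from the labels.

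Each tissue and age was fitted on its own with all 3 groups in edgeR 4.0.16 (TMM, filterByExpr with a minimum count of 10, quasi-likelihood test, Benjamini-Hochberg adjustment over all genes tested), with the labelled batch as a term in medulla at 28 weeks. Genes were called at an adjusted p under 0.05. The scripts were tested on simulated data. Counting noise limits precision for genes with few reads. Alternatives were DESeq2 1.42.0, other scaling, no filter, only the groups compared, a replicate block, single batches and leaving out libraries.

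The text names all 10 members, called genes of 17 lists of other markers, the neighbour Dad1 and, for likeness, the 10 genes with the highest Spearman's rho. The members and lists were chosen with earlier results of these data known. Cd3e and Ptprc overlap other annotated genes, so their counts are uncertain. Of the list genes, 3 were not used because their names matched no single row. Some genes that these rules would name are not reported here.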

Additional observations from a re-analysis of the deposited data

Results flagged for a closer look

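In 3 of the 90 combinations of gene and group of 4 to 10 libraries that were examined, 1 library stood apart from the others of its group by Dixon's criterion, which chance meets in about 1 in 20 groups. Cd3d was at 0.131 CPM in vehicle-treated knockin replicate 2 of medulla at 28 weeks, against 0.0349 to 0.0694 CPM in the other libraries of that group. Cd3d was also high in wild type replicate 4 of pons at 28 weeks, at 0.104 CPM against 0.0252 to 0.0363 CPM. Ptprc was at 5.81 CPM in wild type replicate 8 of medulla at 28 weeks, against 4.44 to 5.02 CPM.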

How the results depend on the processing

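Libraries of the same replicate number were correlated as deviations from their group means, which cannot exclude pairing in groups this small. In no comparison did every same-numbered pair correlate above 0.1. All 3 pairs correlated best with their own number between knockin and wild type in medulla at 18 weeks, the only comparison where all did. Between ASO and wild type in pons at 28 weeks 3 of 4 pairs did. With a replicate block the number of the 10 genes called in pons at 28 weeks went from 2 to 1 between ASO and vehicle (Trac adjusted p = 0.112 by edgeR) and from 1 to 0 between ASO and wild type.

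With only the groups compared, these counts in pons were 0 and 0. DESeq2 called 2 members between ASO and wild type in pons, where edgeR called 1.07% of all genes. The number of all genes that DESeq2 called in that comparison is not given here. In medulla at 28 weeks either batch alone gave 0 between ASO and vehicle, in place of 3, and 0 between ASO and wild type, in place of 1. Leaving out 1 library at a time gave 0 to 2 members in both pons comparisons with the ASO, 2 to 3 between ASO and vehicle in medulla, 0 to 1 between ASO and wild type there and 0 to 1 between ASO and wild type in cerebellum.

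Between knockin and wild type in pons at 18 weeks, Ptprc turned from -0.63 to 0.11 without wild type replicate 3 (-0.96 to 0.11 over libraries left out in turn), and likewise without all libraries whose Atxn1 was taken to go against the label. Dad1 in medulla at 28 weeks turned from -0.10 to 0.0596 between knockin and wild type in batch 1. Between ASO and vehicle it turned from -0.01 to 0.122 in batch 2, 0.00631 without ASO replicate 2, 0.000794 without ASO replicate 1, 0.00594 without ASO replicate 6 and 0.0628 without vehicle-treated knockin replicate 2 (-0.0366 to 0.0628 over libraries left out in turn). The cause was not tested.

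Of all genes, 346 were called between ASO and vehicle in medulla at 28 weeks, against 610 by DESeq2, 162 with 2 groups, 0 in batch 1, 222 in batch 2, 138 without the libraries low in Hox genes and 611 without ASO replicate 2. In pons the 19 called became 614 by DESeq2, 76 without the filter, 3 with 2 groups, 8 with the block and 299 without ASO replicate 2. Leaving out libraries by their Atxn1 or Hox levels was chosen after seeing the data.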

Other observations

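Light chains and markers beside the 10 genes had the following read counts per library. Igkc, the constant region of the kappa light chain, had 0 to 260 reads with a median of 40. Cd79b, the partner of Cd79a, had 4 to 43 reads with a median of 18. Cd247, the zeta chain of the T cell receptor complex, had a median of 9 reads, and Cd8b1, the beta chain of CD8, had a median of 4. Gzmb and Prf1, granule genes of cytotoxic cells, had a median of 2 reads each.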
